A study of Homo sapiens with 8 samples.

Results

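The loci described here are the genes of the U2, U4 and U5 small nuclear RNAs (snRNAs): RNU2-1, RNU4-1, RNU4-2, RNU5A-1, RNU5B-1, RNU5D-1, RNU5E-1 and RNU5F-1. Their members are the accessible regions (peaks) within 1 kb of either end of these 8 RefSeq genes, which gave 9 of the 129536 peaks of the table. Every one of the 8 genes had a peak over it. The loci were chosen by measured values: in an earlier pass over the same comparison, the RNU5D-1 peak was among the lower peaks with the smallest p-values. Differences between vehicle and sorbitol at the 9 peaks are therefore given as descriptions, with standard errors and with no p-value.

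Nuclei were profiled with Omni-ATAC-seq; its transposase inserts sequencing adapters where chromatin is open. The cells were HEK293, a human embryonic kidney line, with the genotype eGFP-YAP, which both groups share. The control group comprised 4 vehicle libraries, and the treated group 4 libraries from cells kept in 0.2 M sorbitol for 1 h, a sugar alcohol that makes the medium hyperosmotic and shrinks cells. Library names and count columns mark the vehicle libraries as 0 h, while the treatment protocol has controls collected in parallel; if they were collected at 0 h, sorbitol and the hour of culture cannot be told apart. The series description also states a serum starvation of 1 h before sorbitol. The sample titles name HEK293 without eGFP-YAP, and the labels state neither whether the line is a single clone nor whether replicates came from separate cultures, so the replicate spread may be technical.

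Spliceosomal snRNAs are short non-coding RNAs that, with bound proteins, remove introns from pre-mRNA. U2 pairs with the branch point of the intron, U4 holds U6 inactive until the spliceosome is activated, and U5 contacts the exon ends that are joined. Their genes are transcribed by RNA polymerase II from short promoters with a proximal element bound by the SNAP complex, and transcripts end with the help of the Integrator complex. Several of these genes exist in near-identical copies, so the assignment of reads to a single copy is uncertain.

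Libraries held 11522266 to 19831471 counts in peaks. Levels below are CPM, that is peak counts relative to library size after scaling by edgeR's trimmed-mean factors. The share of counts in gene-end peaks (peaks within 1 kb of an end of any RefSeq gene) was 51.8% ± 0.858 in vehicle and 47.8% ± 1.28 in sorbitol libraries (SD, n = 4), so it moved in the same direction as the snRNA loci, and its part in the results was not tested. Vehicle 4 and sorbitol 4 lay farthest apart on the second principal component of all peaks (-75.1 and 77.0). Vehicle 4 had the highest level of peaks on unplaced contigs among vehicle libraries (median log2 deviation 0.34), and sorbitol 4 the lowest of all libraries (-0.30). Vehicle 4 was the lowest vehicle library at 9 of 9 snRNA peaks. Gene-end peaks were present at 5 of 7 kidney-lineage marker genes and at 4 of 9 marker genes of colon, blood or liver cells. In bulk nuclei, opening in fewer cells and weaker opening in each cell cannot be told apart.

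At all 9 snRNA peaks accessibility was lower after sorbitol, with 35.0% to 64.3% of the vehicle level left. All 9 passed the adjusted threshold of the edgeR quasi-likelihood fit over all peaks in the lower direction, where 13.1% of all tested peaks and 32.8% of gene-end peaks did so. Calls in either direction covered 29.1% of all tested peaks. Because this contrast was used in choosing the loci, nothing is read from that count. Among the members 0 were higher (also 0 at an unadjusted p under 0.05 and 0 by DESeq2), against 16.0% of all tested peaks and 8.74% of gene-end peaks. Log2 fold changes (sorbitol over vehicle) ran from -1.51 to -0.65 with a median of -0.94, against a median of -0.17 for the 25203 tested gene-end peaks. Without vehicle 4 and sorbitol 4 the range was -1.63 to -0.64 and the median -1.08.

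**Figure D1:**
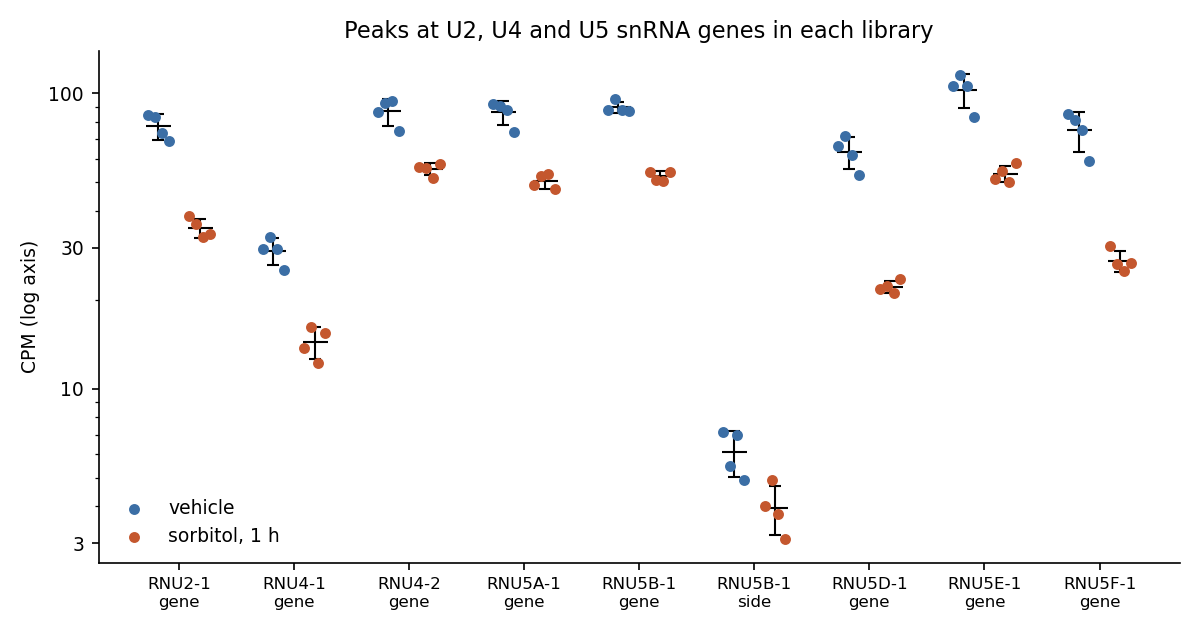
Level of each of the 9 peaks at U2, U4 and U5 snRNA genes in CPM (log axis) in the 4 vehicle (blue) and 4 sorbitol (orange) libraries; points are libraries, and the black marks are the group mean with its SD. The groups did not overlap at any of the 9 peaks, and came closest at the weak RNU5B-1 side peak (4.93 CPM in vehicle 4, 4.90 in sorbitol 2). All sorbitol libraries lay below all vehicle libraries at 12.6% of all tested peaks and 30.8% of tested gene-end peaks.

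RNU2-1 encodes U2 and lies on chromosome 17 at 43233790 to 43233977 (GRCh38). Its peak covered 43233082 to 43234691, reaching 708 bp below the gene and 714 bp above it. The peak had 84.4, 83.3, 73.1 and 68.8 CPM in vehicle 1 to 4 and 38.3, 36.0, 32.6 and 33.4 CPM in sorbitol 1 to 4. The lowest vehicle library thus lay well above the highest sorbitol library. The means were 77.4 ± 7.65 and 35.1 ± 2.62 CPM (SD, n = 4). In the edgeR fit the log2 fold change was -1.14, with a standard error of 0.08. RNU2-1 is the only listed U2 gene and has 1 peak, so it also makes up the U2 sum.

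RNU2-1 has neighbours of the same type. The RefSeq table lists 10 further genes of snRNA type, with LOC identifiers only and 191 to 192 bp long, the nearest 5943 bp beyond RNU2-1 and the last ending 56.7 kb from the start of RNU2-1. U2 genes are known to form a tandem array of near-identical copies on this chromosome arm, but the table does not name a family for these entries. All 10 had peaks, 11 in all. Log2 fold changes at these peaks ran from -1.80 to -0.78 with a median of -1.04, so RNU2-1 lay inside their range. The lowest value belonged to LOC124904135 (61.6 ± 6.07 to 17.7 ± 0.871 CPM) and the highest to LOC124904137 (134 ± 9.87 to 78.1 ± 4.97 CPM; SD, n = 4).

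A sum over copies does not depend on which peak within the cluster a read was assigned to. Reads lost, or exchanged with copies elsewhere, could still alter it. The 12 peaks of RNU2-1 and the cluster held 1195, 1223, 1071 and 1007 CPM in vehicle 1 to 4 and 564, 552, 519.9 and 535 CPM in sorbitol 1 to 4. No sorbitol library came near the vehicle range, and 48.3% of the vehicle mean was left. RNU2-2, a U2 gene on chromosome 11 at 62841619 to 62841809 that shares its peak with an end of WDR74, went from 196 ± 13.0 to 105 ± 3.96 CPM (SD, n = 4). Its log2 fold change was -0.89 with a standard error of 0.07, and 53.8% of its level was left. With this peak added, the 13 peaks kept 49.1% of their summed vehicle level.

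The U4 genes RNU4-2 (120291759 to 120291903) and RNU4-1 (120293093 to 120293237) are neighbours on chromosome 12, 1189 bp apart. A peak lay over each, and each of these peaks is also within 1 kb of the other gene and of an end of SIRT4, a mitochondrial sirtuin gene. RNU4-2 overlaps the lower-coordinate end of SIRT4, so its peak cannot be assigned to the U4 gene alone. That peak, at 120290723 to 120292431, had 86.1, 92.7, 94.1 and 74.3 CPM in vehicle 1 to 4 and 56.5, 55.7, 51.6 and 57.4 CPM in sorbitol 1 to 4. It kept 63.7% of its vehicle level, the largest share among the 8 peaks that lie over a gene, with a log2 fold change of -0.65 (standard error 0.08).

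The RNU4-1 peak, at 120292567 to 120293307, reached only 70 bp beyond the upper end of the gene but 526 bp below its lower end. It had 29.8, 32.5, 29.8 and 25.2 CPM in vehicle 1 to 4 and 13.7, 16.2, 12.2 and 15.5 CPM in sorbitol 1 to 4. Its groups were as clearly apart as those of the stronger neighbour, and 49.2% of its level was left. The log2 fold change was -1.02 with a standard error of 0.10. Both peaks together gave the U4 sum of 116 ± 11.8 CPM in vehicle and 69.7 ± 4.06 CPM in sorbitol libraries (SD, n = 4), a log2 ratio of -0.74.

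The 5 U5 genes encode variants of a single RNA and lie at 3 places: RNU5E-1 alone on chromosome 1, RNU5F-1 and RNU5D-1 9166 bp apart elsewhere on chromosome 1, and RNU5A-1 and RNU5B-1 8509 bp apart on chromosome 15. Their 6 peaks summed to 445, 459.8, 425 and 361 CPM in vehicle 1 to 4 and to 210.2, 211, 204 and 213 CPM in sorbitol 1 to 4. Sorbitol libraries were close to one another, whereas vehicle 4 lay below the other vehicle libraries. The sums averaged 423 ± 43.4 and 209.5 ± 3.93 CPM (SD, n = 4), which left 49.6% of the vehicle level and a log2 ratio of -1.01. Without vehicle 4 and sorbitol 4 the log2 ratio was -1.10 for U5, -0.84 for U4 and -1.18 for U2.

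RNU5D-1 (chromosome 1, 44731069 to 44731170) had the largest fall of the 9 peaks. Its peak at 44730016 to 44731619 held 66.2, 71.7, 61.7 and 53.0 CPM in vehicle 1 to 4 and 21.7, 22.2, 21.1 and 23.6 CPM in sorbitol 1 to 4. Even the lowest vehicle library was more than 2 times the highest sorbitol library. The log2 fold change was -1.51 (standard error 0.09), and the level left was 35.0%. Of the 25203 tested gene-end peaks 22, this peak included, were at or below that fold change. The loci were chosen by the result of this peak in the same contrast, so nothing is read from that rank.

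RNU5F-1 (44721785 to 44721902), inside the protein-coding gene ARMH1, resembled its neighbour. Its peak at 44720722 to 44722405 held 84.8, 81.4, 74.9 and 58.8 CPM in vehicle 1 to 4 and 30.3, 26.4, 25.1 and 26.7 CPM in sorbitol 1 to 4. Vehicle 4 was the lowest vehicle value and still lay above every sorbitol value. The log2 fold change was -1.47 (standard error 0.09), rank 30 from the lowest among gene-end peaks, with 36.2% of the level left. Nothing is read from this rank either, as the contrast was used in choosing the loci. Between these neighbours, a peak 1494 bp from RNU5D-1 had 4.30 ± 1.14 CPM in vehicle and 3.49 ± 0.311 CPM in sorbitol libraries (SD, n = 4), and its groups overlapped (log2 fold change -0.29, edgeR adjusted p = 0.263).

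RNU5E-1 (chromosome 1, 11908152 to 11908272) had the listed peak with the highest mean CPM in vehicle libraries (not in sorbitol, nor per kb) and the widest, 2117 bp at 11907788 to 11909904, which also covered most of the pseudogene RNU5E-4P. It held 106, 115, 106 and 83.1 CPM in vehicle 1 to 4 and 51.2, 54.5, 50.2 and 57.9 CPM in sorbitol 1 to 4. The groups stayed apart, and sorbitol 4 was the highest sorbitol library while vehicle 4 was the lowest vehicle library. The log2 fold change was -0.94 with a standard error of 0.08, and 52.1% of the level was left.

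RNU5A-1 (chromosome 15, 65296051 to 65296167) and RNU5B-1 (65304677 to 65304793) moved alike. The RNU5A-1 peak at 65295596 to 65296992 held 92.2, 90.5, 87.6 and 74.2 CPM in vehicle 1 to 4 and 48.8, 52.3, 53.1 and 47.3 CPM in sorbitol 1 to 4. The RNU5B-1 peak at 65304246 to 65305717 held 88.0, 95.6, 87.5 and 87.0 CPM in vehicle 1 to 4 and 54.1, 50.9, 50.6 and 54.2 CPM in sorbitol 1 to 4. Both loci showed separate groups, both had a log2 fold change of -0.77 (standard error 0.08), and they kept 58.5% and 58.6% of their levels. RNU5B-1 had a side peak as well, at 65303739 to 65303938, 739 bp from the gene. It held 7.14, 5.48, 6.96 and 4.93 CPM in vehicle 1 to 4 and 4.00, 4.90, 3.77 and 3.09 CPM in sorbitol 1 to 4, so its groups only just stayed apart (log2 fold change -0.65, standard error 0.17).

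The split of U5 counts among the genes does not depend on library scaling. Of the counts in the 5 peaks over U5 genes, RNU5D-1 held 15.1% ± 0.449 in vehicle and 10.8% ± 0.338 in sorbitol libraries, and RNU5F-1 held 17.9% ± 1.17 and 13.2% ± 1.01 (SD, n = 4). The shares of RNU5A-1 went from 20.7% ± 0.531 to 24.5% ± 1.76 and those of RNU5B-1 from 21.6% ± 1.91 to 25.5% ± 0.691. In these 4 genes the share of every sorbitol library lay outside the vehicle range. RNU5E-1 kept an overlapping share, 24.6% ± 0.984 and 26.0% ± 1.28. The shares come from the contrast that led to these loci and were not tested.

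**Figure D2:**
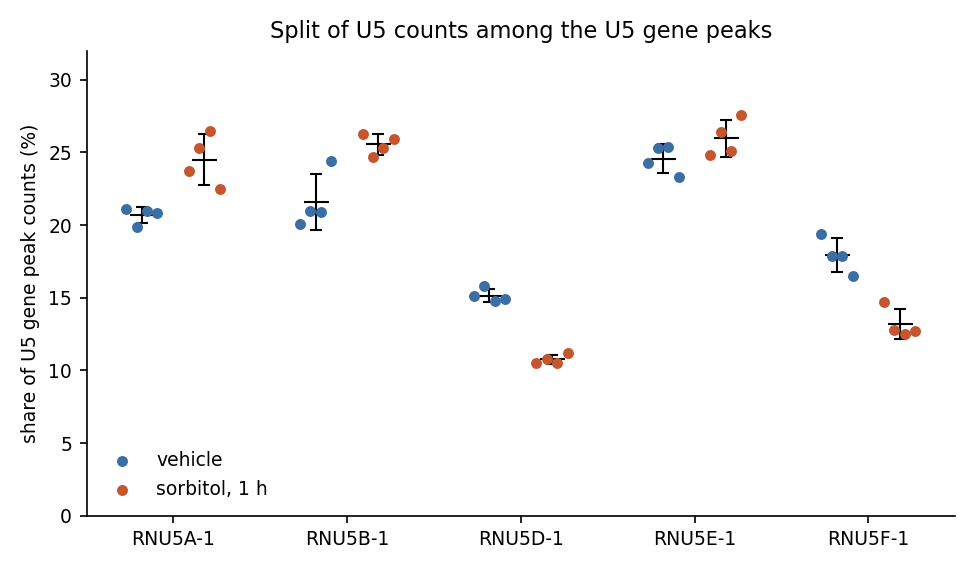
Share of the counts of the 5 U5 gene peaks held by each gene, in percent, in the 4 vehicle (blue) and 4 sorbitol (orange) libraries, with the group mean and SD in black. RNU5D-1 and RNU5F-1 took smaller shares after sorbitol (10.8% and 13.2% on average), and RNU5A-1 and RNU5B-1 larger ones (24.5% and 25.5%).

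Levels among the loci were compared per kb of peak. In vehicle libraries RNU5A-1 (61.7 ± 5.83 CPM per kb) and RNU5B-1 (60.8 ± 2.75) were highest and overlapped. Every RNU5B-1 library was above the highest RNU4-2 library (55.1 CPM per kb), but the lowest RNU5A-1 library (53.1) was not. RNU4-2 (50.8 ± 5.29), RNU5E-1 (48.5 ± 6.47), RNU2-1 (48.1 ± 4.75), RNU5F-1 (44.5 ± 6.85), RNU4-1 (39.5 ± 4.08) and RNU5D-1 (39.4 ± 4.92) came next, and the ranges of neighbours in this order overlapped. The RNU5B-1 side peak was lowest (30.6 ± 5.47; SD, n = 4 throughout). These 8 gene peaks lay between the 90.2 and 98.0 percentiles of vehicle level per kb among gene-end peaks. After sorbitol the first 5 places were unchanged, and RNU5D-1 became the lowest of all 9 (13.8 ± 0.662 CPM per kb, SD, n = 4).

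Gene-end peaks of similar strength are the closest background. The 8 gene peaks averaged 333 to 1188 counts per library, and 7905 tested gene-end peaks fell in that range. Of these, 49.7% were lower past the adjusted threshold but only 0.354% were lower by at least 2-fold (28 peaks), and their median was -0.21 on the log2 scale. The listed genes contributed 4 of the peaks lower by at least 2-fold, namely RNU2-1, RNU4-1, RNU5D-1 and RNU5F-1. Over all tested peaks 0.881% were lower by at least 2-fold, and over gene-end peaks 1.32%; the fold was also part of the contrast used in choosing, so nothing is read from these counts. All sorbitol libraries lay below all vehicle libraries at 9 of 9 members, at 12.6% of all tested peaks and at 30.8% of gene-end peaks, again with no reading.

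**Figure D3:**
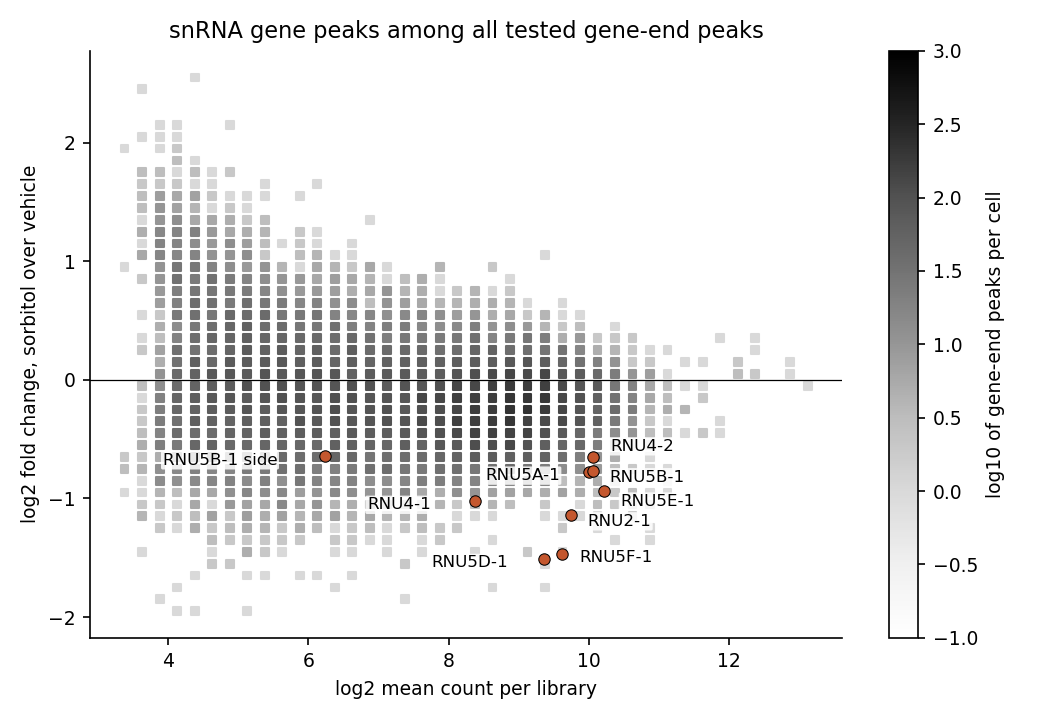
Log2 fold change (sorbitol over vehicle) against log2 mean count per library for all 25203 tested gene-end peaks, shown as grey cells shaded by the log10 number of peaks, with the 9 snRNA peaks as orange points. The snRNA gene peaks lie in the lower part of the cloud for their strength, RNU5D-1 (-1.51) and RNU5F-1 (-1.47) farthest down.

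Peaks on both sides of the 1 kb limit are given as a description. Just inside the 1 kb limit were the U4 peaks, counted from the neighbouring gene (662 and 664 bp), and the RNU5B-1 side peak, whose values are given above. Just outside were peaks 1068 bp from RNU2-1, 1494 bp from RNU5D-1 and 1499 bp from RNU5A-1, with log2 fold changes of -0.23, -0.29 and -0.22. The peak beside RNU2-1, at an end of CCDC200, held 28.3 ± 3.23 and 24.1 ± 2.25 CPM, and that beside RNU5A-1 held 10.8 ± 0.574 and 9.27 ± 0.955 CPM (SD, n = 4). In the edgeR fit 0 of these 3 passed the adjusted threshold, and 0 in DESeq2. The peak beside RNU2-1 had the lowest adjusted p (0.0625 in edgeR) and alone had an unadjusted p under 0.05.

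Out to 25 kb from the listed genes there were 24 further peaks. The 5 at the unnamed snRNA genes beside RNU2-1 were all lower past the threshold (median -1.25 on the log2 scale). Of the other 19, 7 were lower (36.8%) and 12 were not called, with a median of -0.29 and a range of -0.62 to 0.34. The share lower among all tested peaks was 13.1%. Called examples were the end of KIF2C, a kinesin gene 8211 bp from RNU5D-1 (27.4 to 19.4 CPM, log2 fold change -0.49), and the end of KIAA2013, 17093 bp from RNU5E-1 (71.7% of the vehicle level left, -0.48). The peak at ends of PARP16 and SNORA24B, 8804 bp from RNU5A-1, had 42.1 and 41.6 CPM (-0.02, edgeR adjusted p = 0.914).

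**Figure D4:**
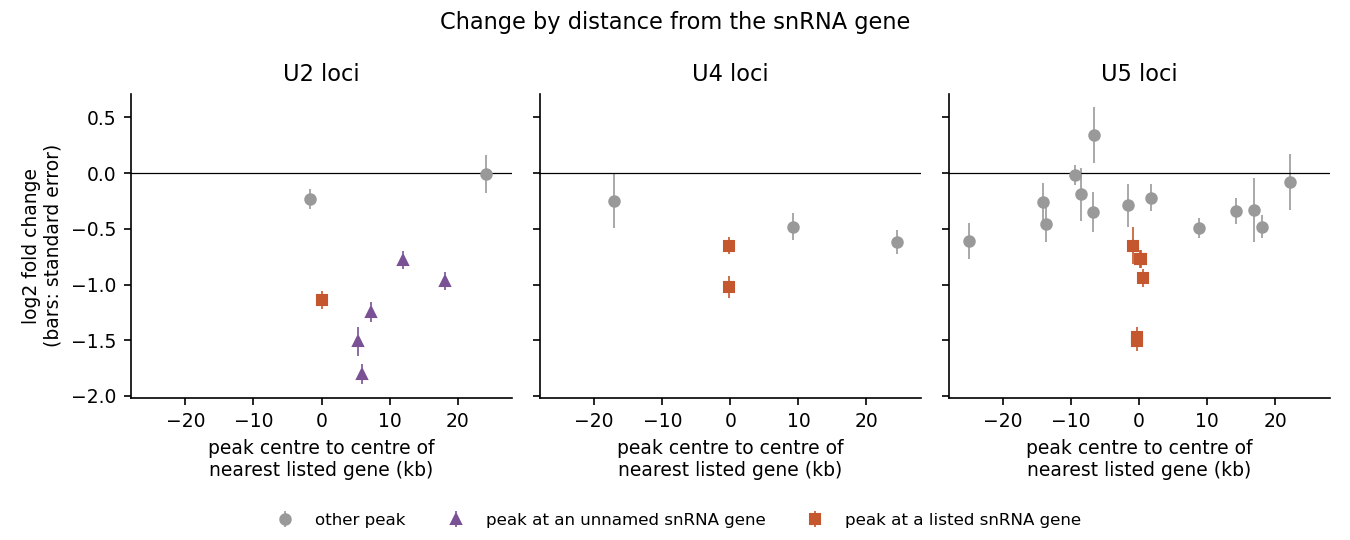
Log2 fold change with its standard error for every peak up to 25 kb from a listed U2, U4 or U5 gene, against the distance in kb between the centre of the peak and the centre of the nearest listed gene. Peaks at listed genes (orange squares, -1.51 to -0.65) and at unnamed snRNA genes beside RNU2-1 (purple triangles, -1.80 to -0.78) lie below the other peaks (grey circles, -0.62 to 0.34). The gap is small beside the standard errors: -0.65 (0.17) at the RNU5B-1 side peak, -0.62 (0.11) at a peak 24004 bp from RNU4-1.

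Most other copies of these genes in the table are pseudogenes, which carry the RNA sequence but are not expected to have a working promoter. Of 186 U2, U4 or U5 copies of pseudogene type, 25 (13.4%) had a peak within 1 kb, against 8 of 8 listed genes. The peak of RNU5E-4P is the listed RNU5E-1 peak and is not counted again here. At the other 26 peaks of these copies the median log2 fold change was -0.07. Of these, 9 were lower (34.6%, near the 32.8% of all gene-end peaks) and 1 higher. Only 5 of the 26 overlapped the pseudogene itself, and 3 of these were lower. RNU5A-8P on chromosome 1 had the lowest value of the 26 (90.1 ± 8.05 to 48.4 ± 2.69 CPM, log2 fold change -0.90). The single higher peak lay 952 bp from RNU2-3P and was weak (0.572 ± 0.265 to 1.41 ± 0.227 CPM; SD, n = 4). RNU2-63P on chromosome 2, which the table classes as snRNA, had -0.44.

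Other snRNA classes are given by counts and medians only; 32.8% of all gene-end peaks were lower, and 49.7% of those in the count range of the listed gene peaks. Of 31 U1 genes 26 had a peak, and 25 of the 26 peaks were lower (median -1.02 on the log2 scale). The 4 minor spliceosome genes (RNU11, RNU12, RNU4ATAC and RNU6ATAC) had 4 peaks, all lower, with a median of -0.82. The 6 peaks at 5 U6 genes had a median of -0.31 and 4 were lower. The U2, U4 and U5 loci (median -0.94) thus lay close to the U1 loci in these medians, and no difference between classes was tested.

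**Figure D5:**
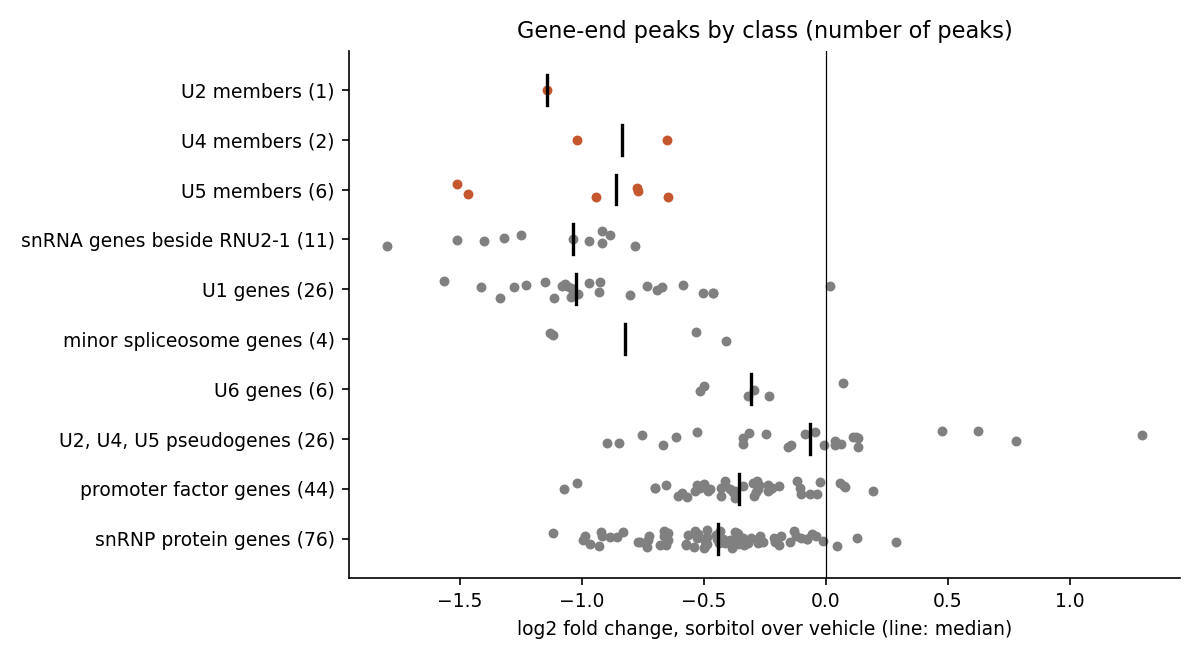
Log2 fold change (sorbitol over vehicle) of each gene-end peak, by class, with the number of peaks in brackets and the class median as a black line; orange points are the listed U2, U4 and U5 genes. U1 genes and the snRNA genes beside RNU2-1 (medians -1.02 and -1.04) lie near the listed genes, and pseudogene copies are spread around a median of -0.07.

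Genes for the proteins that make snRNAs were examined from a list of 35 symbols, of which 34 were in the table and all 34 had a gene-end peak. Of their 44 peaks, 33 were lower and 0 higher (edgeR adjusted p under 0.05) (75.0% lower, against 32.8% of all gene-end peaks). The median was -0.35 on the log2 scale, against -0.17 for all gene-end peaks. Among gene-end peaks in the count range of the listed snRNA gene peaks, 49.7% were lower, with a median of -0.21. At an unadjusted p under 0.05 1 promoter factor peak was higher, and DESeq2 called 34 of them lower and 0 higher. All 8 peaks at the 5 genes of the SNAP complex, SNAPC1 to SNAPC5, were lower in this fit (median -0.48), but 7 with library totals, 4 with gene-end factors, 3 with contig factors and 5 with the loess offset. Among 17 peaks of Integrator genes 13 were lower (median -0.39), among 11 of activators and general factors 7 (-0.28), and 3 of 3 at export genes (-0.37). Of 5 peaks at genes of the little elongation complex and coilin 2 were lower; their median was -0.07, and it turned to 0.02 with library totals, 0.11 with gene-end factors and 0.05 with a loess offset. The peaks with the smallest p-values were those of INTS5, an Integrator subunit gene, on chromosome 11 at 62645855 to 62647192 (38.7 ± 1.10 to 23.7 ± 1.12 CPM, log2 fold change -0.70, edgeR adjusted p = 8.61e-09; the peak is shared with GANAB), of INTS3 on chromosome 1 at 153727519 to 153728697 (72.5 ± 4.89 to 48.1 ± 3.75 CPM, -0.59, edgeR adjusted p = 1.09e-07), and of SP1, a zinc finger activator gene, on chromosome 12 at 53379222 to 53380345 (104 ± 8.27 to 71.7 ± 4.11 CPM, -0.53, edgeR adjusted p = 3.83e-07; SD, n = 4).

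INTS5, INTS3 and SP1 each had a second, weaker peak besides the one named above. That of INTS5, at 62652775 to 62653780, was lower (log2 fold change -0.53), as was that of INTS3, shared with SLC27A3 (-0.23). That of SP1 was not called (0.08, edgeR adjusted p = 0.803). The gene-end peak of POU2F1, which encodes the octamer-binding activator of snRNA promoters, had 81.4 ± 6.29 and 84.6 ± 6.08 CPM (log2 fold change 0.06, edgeR adjusted p = 0.627). ZNF143, another activator, had 1 lower peak (75.1% of 68.4 CPM left, -0.41) and 1 that was not called (-0.10); both genes were chosen after their values were seen. These counts depend on scaling. With factors from gene-end peaks 18 peaks of the list were lower and 3 higher, with factors from contig peaks 7 were lower although the median was then -0.40, and with a loess offset 19 were lower and 3 higher. With contig factors 4 Integrator, 0 activator and 0 export peaks were called lower, with medians of -0.44, -0.33 and -0.40. The stronger SP1 peak was then no longer called, at a log2 fold change of -0.59 (edgeR adjusted p = 0.0703). In the other alternatives its adjusted p in edgeR or DESeq2 was 1.5e-11 to 0.000200.

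Genes of snRNP proteins were read from a list of 50, of which 49 had a peak. Of 76 peaks, 56 were lower (73.7%, against 32.8% of all gene-end peaks) and 0 higher (against 8.74%) in the edgeR fit (higher: 0 at an unadjusted p under 0.05, 0 by DESeq2), and the median was -0.44 on the log2 scale. For gene-end peaks in the count range of the listed snRNA gene peaks, 49.7% were lower and the median was -0.21. Medians by particle were -0.49 for U2 proteins (19 of 25 lower), -0.44 for U4 and tri-snRNP proteins (9 of 12), -0.49 for U5 proteins (9 of 11) and -0.41 for Sm and assembly proteins (19 of 28). The smallest p-values belonged to U2AF2, the large subunit of the factor that recruits U2, on chromosome 19 at 55653553 to 55655278 (55.3 ± 11.2 to 27.9 ± 2.24 CPM, -0.99, edgeR adjusted p = 3.3e-11; shared with CCDC106), CLNS1A, a chaperone of Sm proteins, on chromosome 11 at 77636998 to 77638097 (52.4% of 32.4 ± 1.19 CPM left, -0.93, edgeR adjusted p = 3.3e-11) and a peak 392 bp from PRPF8, the central U5 protein, on chromosome 17 at 1648412 to 1650237 (45.6 ± 3.76 to 25.6 ± 2.55 CPM, -0.83, edgeR adjusted p = 2.55e-10; shared with RILP; SD, n = 4). PRPF8 and U2AF2 each had a second peak that was lower by less. That of PRPF8 lay over the gene at 1684205 to 1685326 and went from 37.4 ± 2.30 to 26.6 ± 1.39 CPM (log2 fold change -0.49). That of U2AF2, 95 bp from an end of the gene and shared with EPN1, had a log2 fold change of -0.49 too. The number of peaks of the list that were lower was 19 with contig factors, at a median of -0.49. With gene-end factors 40 were lower and 2 higher.

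Gene-end peaks whose level followed the listed snRNA peaks over the 8 libraries were sought by Pearson correlation of log2 CPM with their mean, among 18135 candidates. Candidates had a mean of at least 50 counts. Genes with symbols starting with RNU, RNVU, RN7S or TR were left out, so other snRNA genes with such names could not appear. The 5 closest candidates lay at LOC105372385 (r = 0.9975), GPSM3 and NOTCH4 (0.9965), MIA, RAB4B-EGLN2 and RAB4B (0.9961), LOC124904138 (0.9960) and ZNF181 (0.9954). LOC124904138 belongs to the cluster beside RNU2-1. All 5 were lower after sorbitol, with log2 fold changes of -1.01 to -0.69, and the difference between the groups sets most of each correlation.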

How the data were processed

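Omni-ATAC-seq libraries (75 bp paired-end, per the labels' protocols) were analysed from the authors' deposited table of raw counts per peak. The submitters' processing notes name BWA 0.7.17, MACS2 2.2.9.1 and hg38; the merging of peaks and whether reads or fragments were counted are not given in the sources used here. All 8 columns of libraries were used, assigned by treatment and number in their names. Genes came from the RefSeq table of GRCh38.p14, which gives no strand. No sequence is printed: 0 of the 8 genes matched the promoter table.

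Peaks were tested with edgeR 4.0.16 in R 4.3.3 (filterByExpr, minimum count 10 and total 15, which removed 49 peaks; trimmed-mean factors; quasi-likelihood fit with treatment as the only term; Benjamini-Hochberg over 129487 peaks, threshold 0.05). Of the 9 members, 9 passed the filter. Standard errors are the log2 fold change divided by the root of the F statistic. Family sums add scaled counts of all peaks, a shared peak once. Lists were read as peaks within 1 kb of a gene end, naming the 3 smallest p-values per direction. Alternatives included DESeq2 1.42.0, other scalings and filters, a replicate block and left-out libraries. The fits were tested on simulated data. The members and lists were chosen with earlier results of these data known. Intervals of counts were not computed; no molecular identifiers are named, so counts need not be separate molecules.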

Additional observations from a re-analysis of the deposited data

Results flagged for a closer look

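Among 24 groups of 4 libraries examined (9 peaks and 3 family sums in each treatment), 1 had an outlying value; about 1.2 are expected by chance (1 in 20). This was the RNU5B-1 gene peak, at 95.6 CPM in vehicle 2 while vehicle 1, 3 and 4 ranged from 87.0 to 88.0 CPM. The gap made up 0.887 of the whole range, above Dixon's critical value, and the highest sorbitol value was 54.2 CPM.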

How the results depend on the processing

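All 9 member peaks remained lower and past the threshold under each of the 19 alternatives in scaling, filter, test, libraries or threshold (171 of 171 values). Summing the peaks of a locus gave 7 of 7 loci lower. Over all tested peaks the share lower was 13.1% in the main fit. It was 6.70% with gene-end factors, 4.04% with contig factors and 12.4% with the loess offset. All alternatives reuse the same 8 libraries and the contrast used in choosing the loci, so nothing is read from these counts. The member median of -0.94 became -0.76 with gene-end factors, -0.73 with the loess offset and -1.08 without vehicle 4 and sorbitol 4 (chosen after seeing the data). Family ratios with gene-end factors were -0.96 (U2), -0.56 (U4) and -0.83 (U5). These factors moved the median of all peaks from 0.01 to 0.19, and raised the share of higher peaks among calls from 54.9% to 79.7% (67.4% with library totals). Leaving out a library gave member medians of -1.03 to -0.88 and ratios of -1.20 to -1.10 (U2), -0.80 to -0.70 (U4) and -1.08 to -0.97 (U5).

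Promoter factor peaks lower numbered 33, but 18 with gene-end factors, 7 with contig factors and 19 with the loess offset; those higher numbered 0, but 1 with library totals, 3 with gene-end factors, 3 with the loess offset and 2 with a mean of at least 50 counts. For snRNP protein peaks, 56 lower became 19 with contig factors, and 0 higher became 1 with library totals, 2 with gene-end factors, 1 with the loess offset and 1 with the count minimum. Flanking peaks lower went from 12 to 6 with contig factors. Contig factors did not shrink the medians, which were -0.40 (promoter factors), -0.49 (snRNP proteins) and -0.39 (flanks), against -0.35, -0.44 and -0.35. Other snRNA gene peaks higher went from 1 to 2 with library totals, 4 with gene-end factors, 2 with the loess offset, and 1 to 2 when a library was left out (2 without sorbitol 1 or vehicle 4). The cause was not tested.

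Same-numbered libraries did not deviate together (correlations -7.92e-05, 0.00671, -0.0308 and -0.133). The labels do not explain the numbers, so this check cannot tell whether same-numbered libraries were handled together. With the replicate block 15626 peaks were lower and 18819 higher, in place of 17016 and 20699, and the member median was -0.93. Only 4 libraries per group and near-identical gene copies limit the precision.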
